A study of Mus musculus with 26 samples.

Results

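The genes described are 9 imprinted genes that act on growth, taken by symbol from 37310 genes in 26 RNA sequencing libraries: H19, Igf2, Igf2r, Meg3, Dlk1, Peg3, Mest, Plagl1 and Grb10. All 9 were found in the count tables, and all 9 passed the filter on low counts in every comparison. All mice were C57BL/6 and carried MMTV-PyMT, in which a viral promoter active in mammary epithelium drives the polyoma middle T antigen, so every group holds tumor cells of this model. Organoids were grown from such tumors in Matrigel with FGF2, with 4 libraries in each group. The treated groups were kept for 6 days with 500 nM of Malat1 ASO1, Malat1 ASO2 or the control oligonucleotide scASO, replenished after 3 days. The remaining organoid group was Mock. The tumor groups were 3 tumors from mice given ASO1, 4 from mice given ASO2 and 3 from mice given scASO, each at 125 mg/kg per week by subcutaneous injection. ASOs are antisense oligonucleotides; here they were directed against Malat1, an abundant nuclear noncoding RNA. Whether the libraries of a group came from separate animals or cultures is not in the labels, so each p-value reflects the spread among these libraries alone, which may be technical.

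Imprinted genes are expressed mainly from the copy inherited from 1 parent. Many of those expressed from the paternal copy promote growth in the fetus, and many of those expressed from the maternal copy restrain it. Igf2, a fetal growth factor, and H19, a noncoding RNA, share enhancers and are read from opposite parental copies under a shared control region, while Igf2r clears Igf2 from the cell surface. Several of these genes are high in fetal tissue and low in most adult tissue, and H19 and Igf2 are re-expressed in some tumors. The counts do not separate the parental copies, so imprinting itself was not measured.

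Reads assigned to genes numbered 23973533 to 65146030 in organoids and 9939520 to 51363552 in tumors, and levels are given as CPM, counts scaled to a common library size, with TMM factors over all 26 libraries. Malat1 averaged 128 ± 41.9 CPM in ASO1 organoids, 527 ± 645 CPM in ASO2 organoids, 732 ± 447 CPM in scASO organoids and 1095 ± 423 CPM in Mock (SD, n = 4 each). In tumors it averaged 669 ± 232 CPM with ASO1, 632 ± 219 CPM with ASO2 and 1443 ± 544 CPM with scASO (SD, n = 3, 4 and 3). In organoids Malat1 contradicted the label of a pair of libraries, with 1485 CPM in the library labelled ASO2 replicate 1 and 119 CPM in the library labelled scASO replicate 2. Without these libraries Malat1 averaged 207 ± 106 CPM in ASO2 organoids and 936 ± 222 CPM in scASO organoids (SD, n = 3 each). Organoid pairs and fold changes that these libraries enter are given without them too where the members' results turn on them. Leaving both out changed calls of Meg3 alone, between systems and, with the replicate number as a block, for both ASOs against Mock. Organoid libraries that shared a replicate number deviated together from their group means, so organoid comparisons were also fitted with the number as a block. Luminal epithelial markers were present in both systems, with a summed level over 5 genes of 4592 to 9132 CPM in organoids and 2383 to 4471 CPM in tumors.

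Per kilobase of exon, Igf2r was the most abundant member in both systems, at 76.0 ± 17.7 CPM per kb in organoids and 20.4 ± 5.41 CPM per kb in tumors (SD, n = 16 and 10). In organoids Peg3 (13.4 CPM per kb) and H19 (11.8 CPM per kb) came next, then Grb10 (4.87), Mest (4.43) and Plagl1 (3.66 CPM per kb). In tumors H19 (7.08 CPM per kb), Grb10 (5.38) and Peg3 (5.16 CPM per kb) came next, then Plagl1 (3.03) and Mest (0.751 CPM per kb). By this measure Igf2, Meg3 and Dlk1 were the lowest members in both systems. The order depends on exon length, which was longest for Meg3 (18089 bases). In CPM the mean of Meg3 was above that of Mest in ASO2 tumors (4.84 and 2.72) and scASO tumors (3.67 and 1.74). In ASO1 tumors it was below (3.31 and 4.51). The growth factor itself was measured at 0.189 ± 0.245 CPM per kb in organoids and 0.170 ± 0.292 CPM per kb in tumors (SD, n = 16 and 10), far below its receptor.

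**Figure D1:**
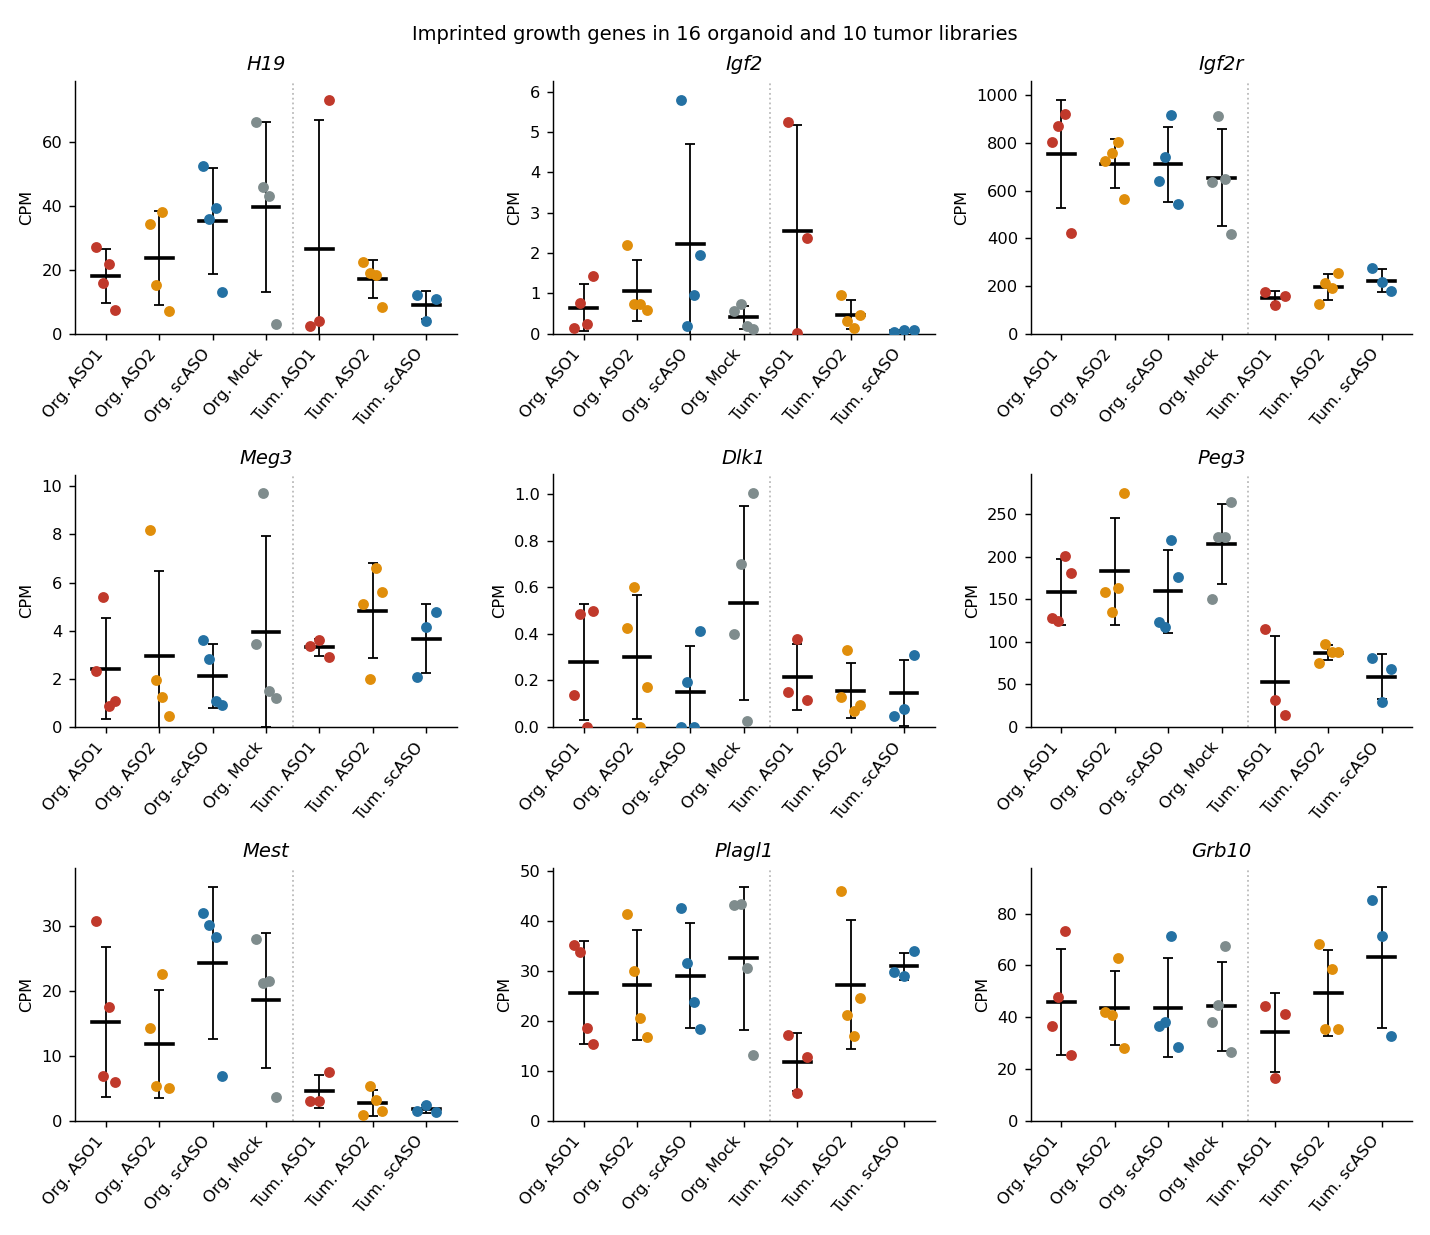
CPM of each member by group, on linear axes that start at 0; points are libraries, horizontal bars group means and vertical bars 1 SD, where a bar that would pass below 0 ends at the axis. Igf2r and Peg3 are higher in all 16 organoid libraries (left of the dotted line) than in all 10 tumors (right), while H19 and Igf2 each have 1 to 2 ASO1 tumors far above the others.

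H19 is a noncoding RNA of the lincRNA class, at chr7:142575529-142578143 on the minus strand of GRCm38 (the build of the annotation, since the authors' build was mm9 and their tables hold no coordinates). Its first exon is the precursor of a microRNA, miR-675, which slows placental growth in mice. The hairpin and both mature arms are shown because they are the part of H19 with a known product; in the hairpin the arms are in capitals, and in each arm the seed, bases 2 to 8, is in capitals (RefSeq, GRCm38.p6).
mir-675 hairpin: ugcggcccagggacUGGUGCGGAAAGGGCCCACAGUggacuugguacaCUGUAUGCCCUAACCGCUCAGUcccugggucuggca
miR-675-5p: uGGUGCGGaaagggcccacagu
miR-675-3p: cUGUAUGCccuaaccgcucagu
The arms have different seeds. The libraries were made from polyadenylated RNA, which does not capture mature microRNAs, so only the host transcript was measured. The Mir675 entry held 0 reads in all 26 libraries, but it overlaps an H19 exon on the same strand. Reads of overlapping genes may be lost in counting, so that 0 does not measure its level.

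In organoids H19 had 27.0, 15.8, 21.8 and 7.40 CPM with ASO1 (replicates 1 to 4), and 34.1, 15.1, 37.9 and 7.18 CPM with ASO2. It had 52.5, 35.9, 39.2 and 12.9 CPM with scASO, and 66.2, 45.8, 43.0 and 2.85 CPM in Mock. The groups overlap, because replicate 4 was the lowest library of every group. Within a number, however, each of the 8 ASO libraries lay below the scASO library of the same number, at 0.422 to 0.966 times its level (median 0.557); of all 17126 genes tested, 2.91% were lower in all 8 of these pairs. The 8 pairs share 4 scASO libraries. Without the libraries labelled ASO2 replicate 1 and scASO replicate 2, all 5 remaining pairs were lower (median 0.557; 6.2% of genes). Set against Mock, 6 of the 8 ASO libraries were lower, and both of number 4 were higher (2.60 and 2.52 times Mock replicate 4). Without the doubted libraries 5 of 7 were lower. The share of all genes was not counted for pairs against Mock. The summed luminal marker level moved the other way from H19 in the pairs against scASO and against Mock. It was higher in each of the 8 ASO libraries than in the scASO library of the same number, at 1.03 to 1.68 times its level (median 1.16), and in all 5 pairs without the doubted libraries (median 1.13). Against Mock it was higher in 6 of 8 pairs and lower in both of number 4. The basal and myoepithelial level was higher in 7 of 8 pairs against scASO and in 8 of 8 against Mock. The part of these cells in the H19 level was not tested.

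By edgeR's quasi-likelihood test, H19 did not pass the adjusted threshold of 0.05 for both ASOs against scASO in organoids (log2 fold change -0.77 ± 0.60 SE, adjusted p = 1.00). No member passed, and 0.0% of all genes did. In that fit 182 genes had an unadjusted p under 0.05, and DESeq2 called 0. Malat1, the target, did not pass there either (-1.53 ± 0.61, adjusted p = 0.9998). Failing this test therefore does not show that a member was unchanged. Malat1 did not pass with the block (-1.72 ± 0.57, adjusted p = 0.202). It passed with the block and without the doubted libraries (-2.67 ± 0.23, adjusted p = 0.000649), but those libraries were picked by their Malat1 level. With the replicate number as a block the H19 estimate was -0.81 ± 0.29 (adjusted p = 0.215; 0.0% of genes called), and without the 2 doubted libraries in that fit it was -0.77 ± 0.33 (adjusted p = 0.535; 0.0231% of genes called). Against Mock the values for H19 were -0.94 ± 0.59 without the block and -0.73 ± 0.30 with it (adjusted p = 1.00 and 0.198), where 0.0% and 4.31% of genes were called. Without the doubted libraries the blocked value against Mock was -0.74 ± 0.30 (adjusted p = 0.135). scASO against Mock gave -0.17 ± 0.71 without the block (adjusted p = 1.00) and 0.08 ± 0.34 with it (adjusted p = 0.933). For both ASOs against Mock, Malat1 did not pass without the block (-2.10 ± 0.60) and passed with it (-2.47 ± 0.56, adjusted p = 0.0267). These comparisons share the ASO or scASO libraries and are not independent of each other.

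In tumors H19 had 2.25, 3.96 and 73.1 CPM with ASO1, 22.3, 19, 18.4 and 8.34 CPM with ASO2, and 12, 4.05 and 10.9 CPM with scASO. ASO1 replicate 3 stood far above every other tumor, and the groups overlap. For both ASOs against scASO the log2 fold change was 1.27 ± 0.93 (adjusted p = 0.850), and without ASO1 replicate 3 it turned to -0.30. No member passed in this comparison by edgeR, and 0.0% of all genes did. Malat1 did not pass there either (-1.14 ± 0.32, adjusted p = 0.827), so failing this test does not show that a member was unchanged. By edgeR 1017 genes had an unadjusted p under 0.05, and DESeq2 called 19 genes. DESeq2 gave no p-value for H19 in the tumor comparisons, so it did not test H19 there. ASO1 replicate 3 also had the highest summed level of 5 basal and myoepithelial markers, 2939 CPM, against 299 to 1842 CPM in the other 9 tumors; the part of these cells in the H19 level was not tested. In tumor tissue fewer cells of a type and less RNA per cell cannot be told apart.

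By mean level the groups ranked Mock organoids (39.5 CPM), scASO organoids (35.1), ASO1 tumors (26.4), ASO2 organoids (23.6), ASO1 organoids (18), ASO2 tumors (17.0) and scASO tumors (8.99 CPM). Neighbours in this order lay closer than the larger of their SDs, except ASO2 and scASO tumors. Over the 10 tumors, the genes whose log2 CPM was most like H19 were Acsbg1, an acyl-CoA synthetase (Pearson r = 0.945), Ly6a, the surface antigen Sca-1 (0.942), Scnn1a, an epithelial sodium channel subunit (0.934), Lpcat4, a lysophospholipid acyltransferase (0.929), and Plac8 (0.928), among 13002 genes. These points share ASO1 replicate 3, in which Acsbg1 had 26.7 CPM and Ly6a had 293 CPM, the highest of each among the 10 tumors. Over the 16 organoid libraries, as deviations from the mean of each number, the closest genes were Rflnb (0.932), Arl15 (0.922), Pygo1, a Wnt pathway co-factor (0.898), Col27a1, a fibrillar collagen (0.891), and Tbx15, a T-box factor (0.879), among 12608 genes. Of the other members, Plagl1 (0.733) and Mest (0.721) were closest to H19 in organoids, at ranks 139 and 173, while in tumors the closest was Mest (0.255). These correlations are a description over 16 and 10 libraries.

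Igf2, at chr7:142650766-142666816 on the minus strand, encodes the growth factor whose gene is a neighbour of H19. In tumors it had 140, 1 and 82 reads with ASO1, 30, 11, 4 and 5 reads with ASO2, and 2, 3 and 2 reads with scASO. As levels these were 5.26, 0.0172 and 2.38 CPM with ASO1, 0.964, 0.302, 0.140 and 0.468 CPM with ASO2, and 0.0492, 0.0783 and 0.0773 CPM with scASO. Every ASO tumor but ASO1 replicate 2 was above every scASO tumor, so the groups overlap. The share of all genes that come as near to being apart was not counted. ASO2 replicates 3 and 4 held only 4 and 5 reads. Pooled over libraries, the ASO tumors had 273 reads and the scASO tumors 7, a ratio of CPM of 18.1 with a counting interval (exact, 95%) of 8.66 to 45.4. The interval covers counting error only. Without ASO1 replicate 1 the ratio was 9.99 (4.72 to 25.3). The tumor with most Igf2, ASO1 replicate 1, had the lowest H19 of all tumors, and the tumor with most H19, ASO1 replicate 3, had the second highest Igf2.

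Igf2 did not pass edgeR's test in tumors, where the adjusted p was 0.827 for both ASOs and 0.535 for ASO1 alone against scASO; 0.00576% of genes, 1 gene, passed for ASO1. DESeq2 did call Igf2 for ASO1 (adjusted p = 0.0173), with 0.64% of genes called. The fitted log2 fold changes, 3.96 ± 1.33 and 5.17 ± 1.44, depend on the prior count because the scASO tumors hold so few reads. The summed level of 5 adipocyte markers was 5.29 to 13.6 CPM in ASO1 tumors, 7.61 to 481 CPM in ASO2 tumors and 3.90 to 5.22 CPM in scASO tumors, where Plin1 was at 0. The summed level of 6 skeletal muscle markers was 1711 CPM in ASO2 replicate 1 and 1.79 to 58.4 CPM in the other 9 tumors, and that of 6 fibroblast markers was 242 to 711 CPM with ASO1, 368 to 2336 CPM with ASO2 and 349 to 537 CPM with scASO. The summed level of 5 endothelial markers was 55.9 to 91.2 CPM with ASO1, 20.5 to 47.3 CPM with ASO2 and 39.6 to 42.1 CPM with scASO. The part of these cells in the Igf2 level was not tested.

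In organoids Igf2 had 0.137, 0.768, 0.247 and 1.42 CPM with ASO1, 2.2, 0.728, 0.743 and 0.580 CPM with ASO2, 5.80, 0.194, 0.957 and 1.95 CPM with scASO, and 0.561, 0.731, 0.178 and 0.126 CPM in Mock. The highest value, 210 reads, was that of scASO replicate 1, and the groups overlap. Both ASOs against scASO gave -1.44 ± 0.74 (adjusted p = 1.00), -1.15 ± 0.66 with the block (adjusted p = 0.349) and -2.04 ± 0.59 with the block and without the doubted libraries (adjusted p = 0.442). Without scASO replicate 1 the unblocked value was -0.35. Against Mock the estimates were positive, at 1.03 ± 0.83 for both ASOs and 2.47 ± 0.95 for scASO (adjusted p = 1.00 for each), and at 0.82 ± 0.63 and 2.86 ± 0.68 with the block and without the doubted libraries (adjusted p = 0.448 and 0.0532). On average the scASO libraries lay above both the ASO and the Mock libraries. The difference between the organoid and the tumor response was the largest estimate among the members, -5.38 ± 1.54 (adjusted p = 1.00, edgeR); 0.0% of genes passed there, 831 had an unadjusted p under 0.05 and DESeq2 called 2. For H19 that difference was -2.01 ± 1.13 and for Mest -1.88 ± 0.89 (adjusted p = 1.00 for each). With the block the differences were -4.74 ± 1.63 for Igf2, -1.81 ± 0.86 for H19 and -1.88 ± 0.60 for Mest. Their edgeR adjusted p-values were 0.208, 0.363 and 0.181, in a fit where 57 genes passed.

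Igf2r, at chr17:12682406-12769664 on the minus strand, encodes the receptor that carries Igf2 to lysosomes and sorts mannose 6-phosphate tagged enzymes. It was higher in organoids than in tumors, with a fold change of 3.88 (log2 1.96 ± 0.17, edgeR adjusted p = 5.09e-09), for the mean of the ASO1, ASO2 and scASO groups in organoids over the mean of the same groups in tumors. Organoids ranged from 417 to 920 CPM (median 732, n = 16), tumors from 119 to 274 CPM (median 184, n = 10), and the ranges do not overlap. In all, 3 of 9 members were called higher and 0 lower, where 28.5% of genes were called higher and 29.8% lower; 58.3% of the 18695 genes tested were called in either direction, so a call here does not set a member apart from genes at large. All organoid libraries lay above all tumors for 2 members, Igf2r and Peg3, as they did for 5.18% of genes. Culture, cell makeup, dose route and time differ between the systems and cannot be told apart. The summed fibroblast marker level was 49.1 to 295 CPM in organoids and 242 to 2336 CPM in tumors, and the basal one was 1643 to 7807 CPM and 299 to 2939 CPM; their part was not tested.

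Airn, the paternally expressed antisense RNA that silences the paternal Igf2r copy in mice, also rose in organoids (log2 1.44 ± 0.28, adjusted p = 0.000174), at 11.2 to 48.7 CPM in organoids and 7.13 to 14.4 CPM in tumors. It overlaps the Igf2r gene on the opposite strand without sharing exons, and the sources used here do not say whether strand was kept. Within systems, both ASOs against scASO gave for Igf2r 0.04 ± 0.22 in organoids and -0.36 ± 0.22 in tumors (adjusted p = 1.00 and 0.839). With the block, edgeR gave 0.03 ± 0.12 in organoids (adjusted p = 0.919).

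Peg3, at chr7:6703892-6730431 on the minus strand, encodes a paternally expressed zinc finger protein. It had 128, 125, 202 and 181 CPM in ASO1 organoids, 159, 135, 163 and 275 CPM in ASO2 organoids, 123, 117, 220 and 177 CPM in scASO organoids and 151, 223, 223 and 265 CPM in Mock. Tumors had 115, 31.4 and 13.7 CPM with ASO1, 75.8, 97.6, 87.7 and 88.2 CPM with ASO2, and 80.6, 29.4 and 68.0 CPM with scASO. All organoids lay above all tumors, the closest pair being the library labelled scASO replicate 2 and ASO1 tumor replicate 1. The fold change was 2.56 (log2 1.36 ± 0.27, adjusted p = 0.000183). ASO1 tumors spanned a wider range than the other tumor groups, with an SD of 54.0 CPM about a mean of 53.3 CPM. In organoids, both ASOs against scASO gave 0.09 ± 0.25 for Peg3, and 0.10 ± 0.14 with the block (edgeR adjusted p = 0.722 with the block). Against Mock the values were -0.35 ± 0.24 and, with the block, -0.37 ± 0.14 (edgeR adjusted p = 0.157 with the block, where 4.31% of genes were called).

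Mest, at chr6:30723547-30748465 on the plus strand, encodes a paternally expressed hydrolase-like protein of mesoderm. It had the largest fold change of the members between systems, 5.86 (log2 2.55 ± 0.44, adjusted p = 4.17e-05). Organoids had 30.7, 6.82, 17.4 and 5.96 CPM with ASO1, 14.2, 5.29, 22.6 and 5.05 CPM with ASO2, 32.0, 30.1, 28.2 and 6.84 CPM with scASO, and 27.9, 21.1, 21.5 and 3.68 CPM in Mock. Tumors had 3.04, 3.06 and 7.42 CPM with ASO1, 0.899, 5.36, 3.12 and 1.5 CPM with ASO2, and 1.45, 2.4 and 1.35 CPM with scASO. The ranges overlap, because the 4 number 4 organoids and both ASO libraries of number 2 lay below the highest tumor, ASO1 replicate 3. Mest shares exon sequence with Copg2 on the opposite strand, and without knowledge of strand their reads cannot be told apart; Copg2 did not pass in this comparison (0.33 ± 0.16, adjusted p = 0.0950).

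The promoter windows of the 3 called members are shown to see what sequence they share; each runs from 250 bases before to 50 bases after a RefSeq transcript start (GRCm38.p6), which is not always the end of the GENCODE gene given above. Mest has 3 windows, all inside its GENCODE gene, of which the last 2 overlap almost wholly, and the first of these is shown. The windows were searched on both strands for the cAMP response element TGACGTCA, the E-box CACGTG and the TATA box TATAAA, and matches are in capitals.
Igf2r promoter, chr17:12769657-12769956, minus strand: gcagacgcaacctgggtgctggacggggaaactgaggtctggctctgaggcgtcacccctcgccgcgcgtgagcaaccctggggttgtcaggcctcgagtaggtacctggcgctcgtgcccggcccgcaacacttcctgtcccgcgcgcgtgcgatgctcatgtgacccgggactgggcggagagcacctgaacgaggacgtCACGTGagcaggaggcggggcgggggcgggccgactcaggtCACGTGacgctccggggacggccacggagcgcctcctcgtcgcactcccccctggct
Peg3 promoter, chr7:6730370-6730669, minus strand: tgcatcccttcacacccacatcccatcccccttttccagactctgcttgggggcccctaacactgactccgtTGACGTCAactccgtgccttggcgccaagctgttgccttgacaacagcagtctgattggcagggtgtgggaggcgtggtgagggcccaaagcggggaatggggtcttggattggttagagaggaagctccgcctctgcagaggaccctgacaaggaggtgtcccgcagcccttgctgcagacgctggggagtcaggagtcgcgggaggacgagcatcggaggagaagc
Mest promoter, chr6:30737800-30738099, plus strand: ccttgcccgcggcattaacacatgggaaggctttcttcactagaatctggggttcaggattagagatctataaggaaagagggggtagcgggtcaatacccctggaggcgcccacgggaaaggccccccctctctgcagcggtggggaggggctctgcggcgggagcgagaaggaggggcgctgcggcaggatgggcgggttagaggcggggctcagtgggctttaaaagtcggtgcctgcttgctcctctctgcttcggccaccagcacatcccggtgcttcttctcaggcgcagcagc
Igf2r held 2 E-box matches, Peg3 held 1 match to the cAMP response element, and Mest held none of the 3 motifs in any of its 3 windows. No match overlapped another. Of all 32851 promoter windows of this length, 1.79% held TGACGTCA, 7.15% CACGTG and 13.6% TATAAA. The first window of Meg3, which was not called between systems, also held TGACGTCA, and the Plagl1 window held CACGTG. The 3 called members had no searched motif in common. H19 has no entry in the promoter table.

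**Figure D2:**
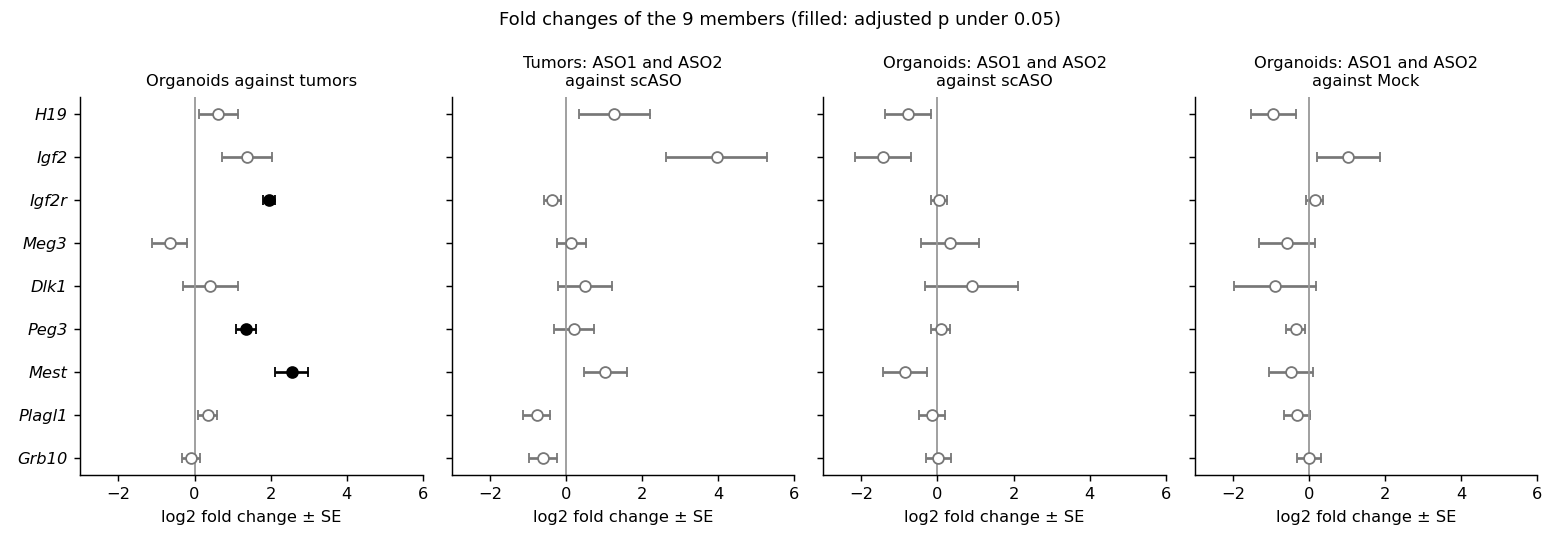
Log2 fold change and standard error of each member by edgeR, for organoids against tumors and for both ASOs against scASO in tumors and organoids and against Mock in organoids. Filled points passed the adjusted threshold of 0.05. The fits shown are those without the replicate number as a block. The only filled points are Mest, Igf2r and Peg3 in organoids against tumors.

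The remaining members did not pass between systems. H19 gave 0.63 ± 0.52 (adjusted p = 0.306), and 1.66 with an adjusted p of 0.00354 without ASO1 tumor replicate 3. Igf2 gave 1.39 ± 0.66 (adjusted p = 0.0734) and passed without ASO1 tumor replicate 1, without ASO2 tumor replicate 1 or without the library labelled scASO replicate 2 (smallest adjusted p = 0.0363). Without these libraries, in the order given from ASO1 tumor replicate 3 on, 55.6%, 54.9%, 56.7% and 56.2% of genes were called. DESeq2 called Igf2 (log2 1.4, adjusted p = 0.0403), where 59.2% of genes were called. By limma voom with quality weights H19 (1.49 ± 0.47, adjusted p = 0.00731) and Plagl1 (0.62 ± 0.21, adjusted p = 0.0132) were called too, where 67.0% of genes were. Plagl1 gave 0.35 ± 0.25, Dlk1 0.41 ± 0.72 and Grb10 -0.10 ± 0.24 (adjusted p = 0.244, 0.642 and 0.741).

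Meg3, at chr12:109541001-109571726 on the plus strand, is a maternally expressed noncoding RNA with growth-restraining activity, and Dlk1 beside it is its paternally expressed partner, a Notch-like surface protein of stem and precursor cells. Meg3 had 2.33, 5.40, 0.882 and 1.07 CPM with ASO1, 8.18, 1.96, 1.25 and 0.460 CPM with ASO2, 3.62, 2.83, 1.09 and 0.911 CPM with scASO, and 3.44, 9.71, 1.5 and 1.21 CPM in Mock in organoids. Tumors had 3.38, 3.62 and 2.93 CPM with ASO1, 5.11, 2.01, 6.62 and 5.62 CPM with ASO2, and 2.07, 4.15 and 4.79 CPM with scASO. Numbers 3 and 4 of the organoids lay below all tumors, and numbers 1 and 2 overlapped them. Between systems the value was -0.65 ± 0.46 (adjusted p = 0.229). It passed with the replicate number as a block, at -1.05 ± 0.31 (adjusted p = 0.00715; 66.3% of genes called), and without the 2 doubted libraries, at -1.13 ± 0.44 (adjusted p = 0.0336; 54.3% of genes called).

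For both ASOs against Mock, Meg3 gave -0.59 ± 0.74 (adjusted p = 1.00), and with the block and without the doubted libraries -0.99 ± 0.25 (adjusted p = 0.0285). It was the only member called in that fit, where 9.86% of genes were called, and without the block 0.0% were. The ASO libraries lay below the Mock library of their number in 7 of 8 pairs, the exception being the library labelled ASO2 replicate 1. These pairs share the Mock libraries, and the share of all genes with such a count was not taken. Against scASO the ASO libraries lay below the library of their number in 4 of 8 pairs. The fit with the block and without the doubted libraries gave -0.64 ± 0.32 there (adjusted p = 0.579).

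Dlk1, at chr12:109452823-109463336 on the plus strand, was near the limit of detection throughout, with 0 to 24 reads per library. The 4 organoid libraries of number 3 had 1 read together and the other 12 had 165, a ratio of CPM of 0.0165 (counting interval 0.000416 to 0.0935). Tumors had 1 to 22 reads. No difference between treatments was detectable at this depth.

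Plagl1, at chr10:13060504-13131694 on the plus strand, encodes a paternally expressed zinc finger factor that regulates other imprinted genes in mice, H19 among them. In tumors it had 17.1, 5.44 and 12.8 CPM with ASO1, 46.0, 21.1, 17.0 and 24.6 CPM with ASO2, and 29.7, 29.0 and 34.0 CPM with scASO. All ASO1 tumors lay below all scASO tumors for Plagl1, as they did for Igf2r and for 9.39% of genes, while the ASO2 tumors lay on both sides for Plagl1. For Mest all ASO1 tumors lay above all scASO tumors, as they did for 7.07% of genes. ASO1 against scASO gave -1.37 ± 0.44 (adjusted p = 0.535), ASO2 against scASO -0.16 ± 0.40 (adjusted p = 0.955) and ASO1 against ASO2 -1.21 ± 0.42 (adjusted p = 0.493; 0.0% of genes called). In organoids the ASO libraries lay below the scASO library of their number in 7 of 8 pairs, at a median ratio of 0.888, and the exception was the number 2 ASO1 library, set against the library labelled scASO replicate 2. These pairs share the scASO libraries, and the share of all genes lower in at least 7 of 8 pairs was not counted. Without the doubted libraries all 5 pairs were lower, at a median ratio of 0.835 (6.2% of genes). With the block the value was -0.16 ± 0.12 (adjusted p = 0.474), and without the doubted libraries -0.28 ± 0.13 (adjusted p = 0.555).

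Grb10, at chr11:11930508-12038683 on the minus strand, encodes an adaptor that dampens insulin and IGF1 receptor signalling. Its estimates in organoids were the closest to 0 of the 9 members: both ASOs against scASO gave 0.02 ± 0.32 and against Mock -0.0041 ± 0.32 (adjusted p = 1.00 for both). With the block, edgeR gave 0.03 ± 0.08 and -0.0025 ± 0.08 (adjusted p = 0.869 and 0.992). In tumors it had 44.4, 16.6 and 41.2 CPM with ASO1, 68.2, 35.3, 58.7 and 35.3 CPM with ASO2, and 85.4, 71.3 and 32.8 CPM with scASO, and these groups overlap. Both ASOs against scASO gave -0.61 ± 0.37 in tumors (adjusted p = 0.839).

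Mest within organoids followed H19 in direction. Each of the 8 ASO libraries lay below the scASO library of its number, at 0.176 to 0.958 times its level (median 0.678; 2.91% of genes were lower in all 8), and all 5 pairs without the doubted libraries did, at a median of 0.800 (6.2% of genes). The luminal marker level, given with H19, moved the other way in the same pairs. The 2 lowest ratios, 0.176 and 0.227, were those set against the library labelled scASO replicate 2, which had 30.1 CPM. Against Mock, 4 of 8 pairs were lower, and 3 of 7 without the doubted libraries. Both ASOs against scASO gave -0.86 ± 0.58 (adjusted p = 1.00), -0.91 ± 0.31 with the block (adjusted p = 0.211) and -0.52 ± 0.30 with the block and without the doubted libraries (adjusted p = 0.618). Limma voom with quality weights called Mest for both ASOs (-1.43 ± 0.37, adjusted p = 0.0424; 6.01% of genes called) and for ASO2 alone against scASO (-1.80 ± 0.43, adjusted p = 0.0113; 23.2% of genes called), and edgeR called 0.0% of genes in each. In tumors both ASOs against scASO gave 1.03 ± 0.57 (adjusted p = 0.83).

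**Figure D3:**
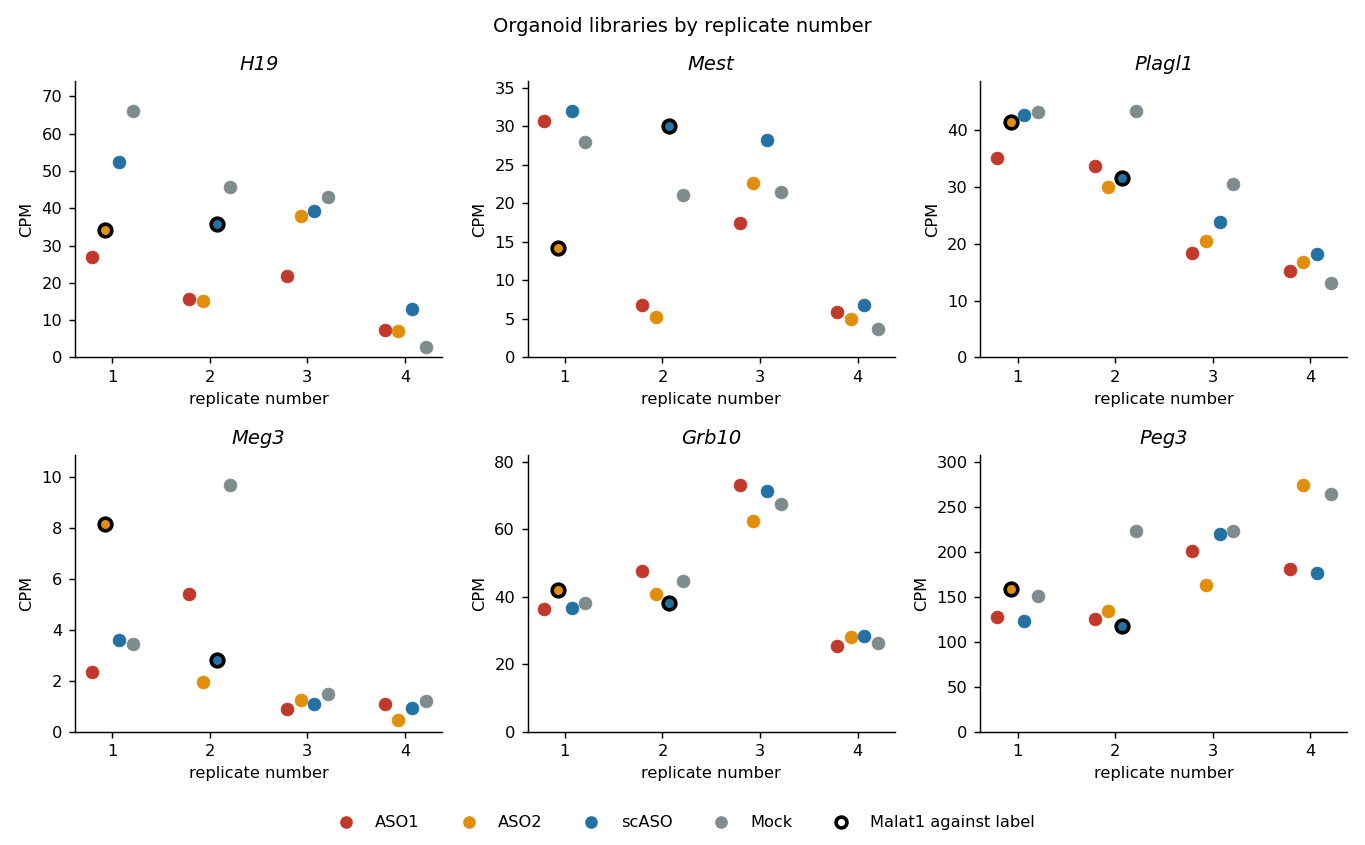
CPM of 6 members in the 16 organoid libraries by replicate number, with the oligonucleotide as colour and a black ring around the libraries whose Malat1 level went against the label; axes are linear and start at 0. H19, Mest, Plagl1 and Meg3 are lowest on average at number 4, Grb10 is highest at number 3, and Peg3 is higher on average at numbers 3 and 4 than at 1 and 2.

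Members also differed between the replicate numbers of the organoids. By an edgeR F-test over the 4 numbers, 8 of 9 members differed between numbers, all but Igf2, where 81.0% of genes did. Grb10 averaged 38.4, 42.8, 68.7 and 27.1 CPM at numbers 1 to 4, with little spread inside a number (edgeR adjusted p = 2.24e-07). H19 averaged 45.0, 28.2, 35.5 and 7.58 CPM, and Mest 26.2, 15.8, 22.4 and 5.38 CPM (adjusted p = 0.000332 and 0.000735). Plagl1 averaged 40.6, 34.7, 23.3 and 15.8 CPM, and Meg3 4.39, 4.98, 1.18 and 0.913 CPM (adjusted p = 1.55e-05 and 0.000793). Peg3 ran the other way, at 140.2, 150.0, 202 and 224 CPM (adjusted p = 0.00169), and Igf2r was lowest at number 4, at 487 against 701 to 822 CPM at the other numbers (adjusted p = 0.00119). The labels do not say what a number stands for. The summed adipocyte marker level was 12.9 to 71.2 CPM at number 4 and 1.28 to 8.95 CPM at the other numbers, and the fibroblast level was lowest at number 3, 49.1 to 80.5 CPM. The basal and myoepithelial level was highest at number 4 within every treatment, at 4335 to 7807 CPM against 1643 to 4591 CPM at the other numbers. The part of these cells in the members' levels was not tested.

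The other genes of the pathway were taken from 3 lists: other imprinted genes, the IGF axis of ligand, receptors, adaptors and binding proteins, and genes that maintain imprints. Of 31 other imprinted genes tested, 9 rose and 8 fell in organoids relative to tumors, or 54.8% called against 58.3% of all genes (median log2 -0.05; all genes -0.02). Phlda2, a maternally expressed gene that limits placental growth, rose (1.88 ± 0.19), as did Peg10, a retrotransposon-derived gene needed for the placenta (1.80 ± 0.54), Ascl2, a trophoblast and stem cell factor (1.26 ± 0.48), and Gnas, a G protein subunit (1.06 ± 0.32). Cobl (0.80), Ube3a (0.78), Trappc9 (0.67) and Slc22a18 (0.45) rose by less, and Airn, given above, was the ninth that rose. Ppp1r9a (-1.47 ± 0.17), Mkrn3 (-1.76 ± 0.42), Rasgrf1 (-2.0 ± 0.49), Ddc (-2.17 ± 0.43), Peg12 (-2.45 ± 0.61) and Commd1 (-0.92 ± 0.18) fell. Ndn, a growth-restraining protein of neurons, was called lower as well (-1.25 ± 0.44), but the difference in means lay in ASO2, at 0.245 ± 0.133 CPM in organoids and 3.21 ± 3.09 CPM in tumors (SD, n = 4 each). For ASO1 the means were 0.293 CPM in organoids and 0.268 CPM in tumors, and for scASO 0.316 and 0.360 CPM. Dio3, the thyroid hormone inactivating deiodinase in the same cluster as Meg3 and Dlk1, fell too, at 0 to 0.0282 CPM in organoids and 0.0985 to 1.05 CPM in tumors.

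Of 16 genes of the IGF axis, 6 rose and 1 fell in organoids, or 43.8% called against 58.3% of all genes (median 0.10). Igf1r, the receptor through which Igf2 and Igf1 signal, was 17.6 to 65.4 CPM in organoids and 1.38 to 5.42 CPM in tumors (log2 3.89 ± 0.24, adjusted p = 9.75e-11). Igf2bp2, an RNA-binding protein of the Igf2 message, rose by more (4.42 ± 0.48), and Pappa, a protease of IGF binding proteins, rose by 2.02 ± 0.46. The adaptors Irs1 (1.01) and Irs2 (0.74) and the insulin receptor Insr (0.52) rose as well, and the binding protein Igfbp3 fell (-1.25 ± 0.35). Of 9 genes that maintain imprints, Dnmt3a (0.80 ± 0.09) and Trim28 (0.34 ± 0.09) rose, and Zfp57 (-2.0 ± 0.36) and Dppa3, at 0 to 0.0633 CPM in organoids and 0.0522 to 0.435 CPM in tumors, fell, or 44.4% called against 58.3% of all genes (median 0.17).

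By edgeR without the block, no gene of these lists passed in any of the ASO comparisons or in scASO against Mock. Of all genes, 0.00576% passed there for ASO1 against scASO in tumors and 0.0% in each other comparison. Malat1 passed in none of them. List genes are not given for the fits with the block, where 4.31% of genes were called for both ASOs against Mock. For both ASOs against scASO in tumors the smallest p-values were those of Zfp57 (1.24 ± 0.48), Cobl (-0.76 ± 0.31) and Igf1 (1.43 ± 0.62), each with an adjusted p of 0.827 by edgeR. In organoids they were those of Ppp1r9a (-0.38 ± 0.19), Cobl (-0.22 ± 0.12) and Nap1l5 (0.96 ± 0.62), each with an adjusted p of 1.00.

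**Figure D4:**
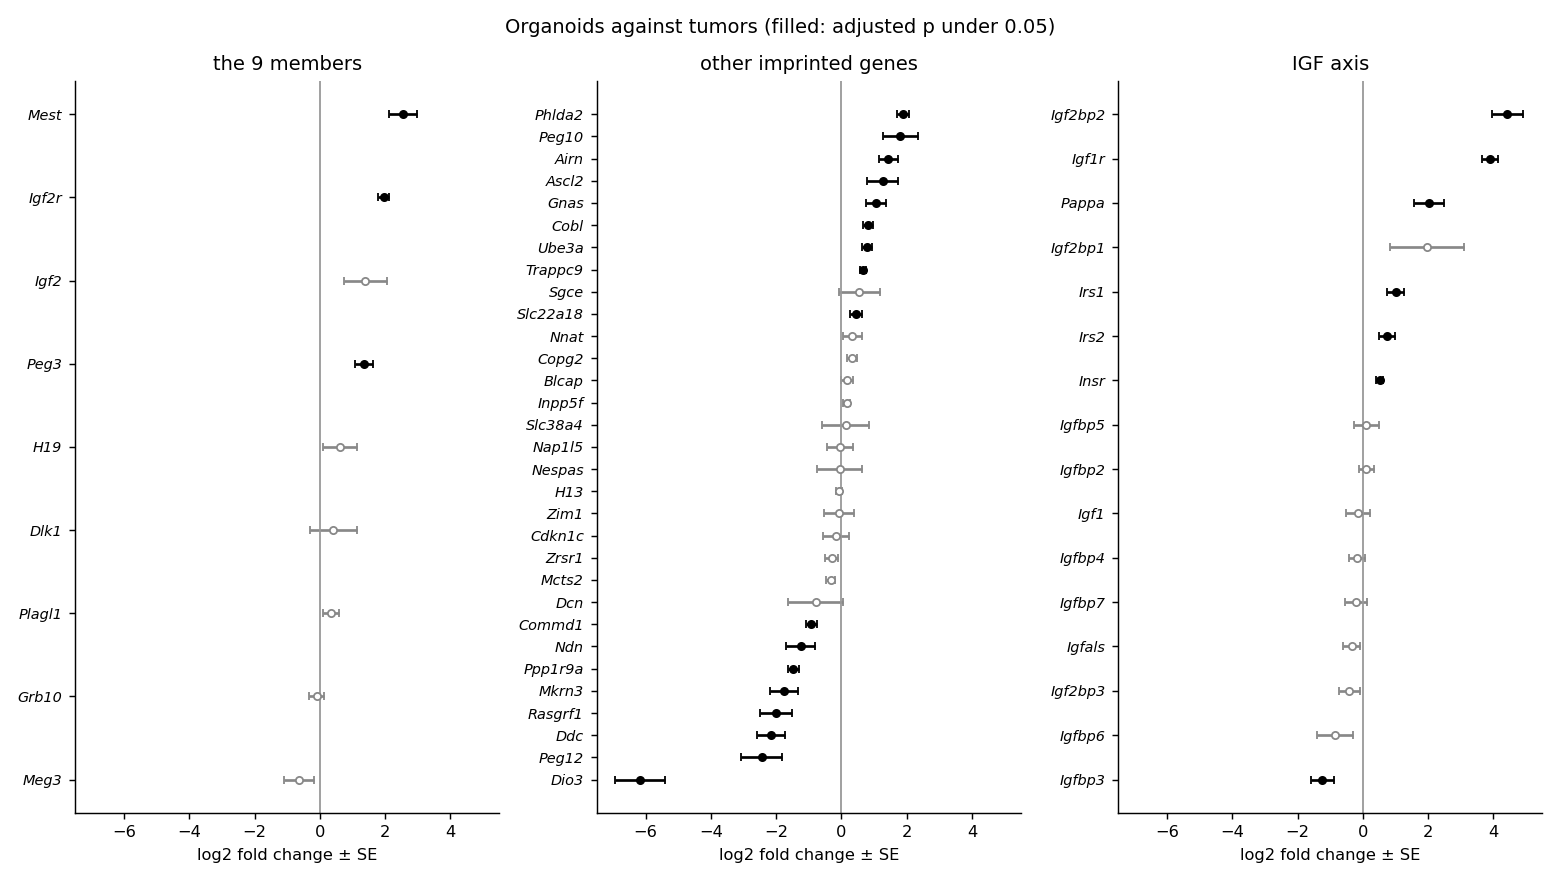
Log2 fold change and standard error in organoids against tumors for the 9 members, 31 other imprinted genes and 16 genes of the IGF axis. Filled points passed the adjusted threshold of 0.05 by edgeR, without the replicate number as a block. Members and other imprinted genes lie on both sides of 0, and Igf1r and Igf2bp2 have the largest values of the IGF axis; the value of Dio3 depends on the prior count because organoids held almost no reads of it.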

How the data were processed

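Polyadenylated RNA was sequenced from 16 organoid and 10 tumor libraries, made from 1 µg of TRIzol-extracted RNA with TruSeq chemistry, per the labels' protocols. The authors deposited raw read counts per gene for each library; CASAVA, FastQC, STAR, HTSeq and DESeq2 are named with build mm9, per the submitters' processing notes, without versions or options, and whether strand was used in counting is not stated. The tables' 5 lines of unassigned reads entered neither library sizes nor tests; relative to reads in genes, those in no feature came to 8.34 to 14.6% in organoids and 11.1 to 24.5% in tumors, and those with several alignments to 21.2 to 32.7% and 24.1 to 44.0%. Reads with several alignments are not counted for a gene, and reads of overlapping genes may be lost or shared.

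Symbols came from GENCODE M21 on GRCm38 (for 32620 of 37310 IDs), which also gave positions and exon lengths. Tests were edgeR 4.0.16 quasi-likelihood F-tests in R 4.3.3, with TMM scaling, filterByExpr (minimum count 10, minimum total 15) and Benjamini-Hochberg adjustment over all genes of a comparison, at 0.05. Organoids and tumors were fitted separately, and in 1 fit of 7 groups where systems were compared. Errors of fold changes are standard errors, from the fold change and the F statistic; log2 CPM used a prior count of 2. The fits were tested on simulated data. Alternatives were DESeq2 1.42.0, limma 3.58.1 (voom with quality weights), DESeq2 size factors, no filter, dispersions from the compared groups alone, each library left out, the doubted libraries left out and the replicate number as a block; leaving out a replicate number was added after the data were seen. Of organoid pairs with the same number, 24 of 24 had deviations that correlated over 0.1 (0.469 to 0.934), so the numbers pair the organoids; the labels do not say what a number stands for. No libraries of a group agreed within sampling noise.

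The members, gene lists, marker lists and tests were chosen with earlier results of these data known. Named were all members, Malat1, list genes past the threshold or else the 3 with the smallest p, and the 5 genes most like H19 per system (mean log2 CPM of at least 1).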

Additional observations from a re-analysis of the deposited data

Results flagged for a closer look

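Of 45 Dixon tests of single libraries in groups of 4, 2 passed the 95% limit, and chance flags about 1 in 20. Igf2 in the organoid library labelled ASO2 replicate 1 was 2.2 CPM, against 0.580 to 0.743 CPM in the other ASO2 libraries (ratio 0.900); this is a library whose Malat1 level went against its label. Mest in scASO organoid replicate 4 was 6.84 CPM, against 28.2 to 32.0 CPM in the other scASO libraries (ratio 0.849), and Mest was low in all libraries of number 4.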

How the results depend on the processing

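Of 2531 alternative fold changes of single members, 2516 stayed on their side of the threshold and 15 newly passed it; no called value changed sign. The count of members called rose to 1 of 9 by DESeq2 for ASO1 against scASO in tumors (Igf2), to 1 of 9 by limma voom for both ASOs and for ASO2 against scASO in organoids (Mest, adjusted p = 0.0424 and 0.0113), to 1 of 9 for both ASOs against Mock with the replicate block and without the doubted libraries (Meg3), and to 5 of 9 by limma voom for organoids against tumors (H19 and Plagl1, adjusted p = 0.00731 and 0.0132). With each library left out, it stayed at 0 in the treatment comparisons, and ranged from 3 to 4 between systems and from 8 to 9 between numbers. With the replicate block alone Meg3 passed between systems, and no other call of a member changed. Leaving out a replicate number, chosen after seeing the data, changed no call of a member. Tumors share only a number: 2 of 9 same-numbered pairs correlated over 0.1 (-0.215 to 0.166), and the replicate block called 0 genes in each tumor comparison. Counts over all genes moved more. For both ASOs against Mock in organoids 0 passed in the main analysis, 738 with the block, 1709 with the block and without the doubted libraries, 1 without those libraries alone and 6 by DESeq2; for scASO against Mock 0, 128, 308 and 1 (DESeq2). Limma voom called 1029 genes for both ASOs and 3974 for ASO2 against scASO in organoids, where the main analysis called 0, and the block without the doubted libraries called 4, 1 and 3 for both ASOs, ASO1 and ASO2. DESeq2 called 19, 111, 45 and 150 genes in tumors for both ASOs, ASO1, ASO2 and ASO1 against ASO2, where the main analysis called 0, 1, 0 and 0; ASO1 gave 0 with the block or with dispersions of the compared groups alone, and without the filter 3 and 4 passed for ASO1 against scASO and against ASO2. For ASO1 against scASO, leaving out any tumor but ASO1 replicates 1 and 3 moved the 1 call, to between 0 and 3. The difference between systems in response gave 0, and 57 with the block, 280 by limma voom and 2 by DESeq2. The cause of these differences was not tested. Depth limits Igf2, Dlk1 and Meg3, which had as few as 1, 0 and 22 reads in a library.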
